A study of Mus musculus with 2 samples.

Results

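The 10 genes described here are cytokines of the interleukin-6 (IL-6) family, their shared receptor chain, the transcription factor they activate, and genes that this signal switches on and that feed back on it. They are Il6, Osm, Lif, Il6st, Stat3, Socs1, Socs2, Socs3, Cish and Pim1. They were taken by symbol from the 31053 genes of the count table, where each symbol has 1 row, and their raw UMI counts (unique molecular identifiers, 1 per captured RNA molecule) were summed per library and cell type. The study compared 2 droplet single-cell RNA libraries of mouse back skin, 1 from wild-type (WT) mice and 1 from Chrna5-/- mice (KO), which lack the alpha 5 subunit of nicotinic acetylcholine receptors. Mice of both genotypes received imiquimod, which activates Toll-like receptors and is widely used to model psoriasis. The mice were female and 6 to 8 weeks old, and 62.5 mg of 5% imiquimod cream was put on shaved back skin on 6 days, with the skin taken on day 7. The labels give the strain as C57BL/6, name both C57BL/6N and C57BL/6J in their protocols, state that the KO line was backcrossed to C57BL/6N, and give 5 mice per experimental group without saying whether a library pools mice. The sources used here do not say which part of Chrna5 is deleted, and mice given only the cream base, which the labels mention, are not analysed here.

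IL-6, oncostatin M (Osm) and leukaemia inhibitory factor (Lif) signal through gp130, the receptor chain encoded by Il6st, together with further receptor chains. Gp130 binds Janus kinases, which phosphorylate STAT3, and STAT3 then enters the nucleus and turns on Socs3 and Pim1 among other genes. SOCS3 protein blocks gp130 and its kinases, SOCS1 blocks Janus kinases and is best known for limiting interferon signals, and SOCS2 and CIS (encoded by Cish) act mostly on receptors that use STAT5. In skin, keratinocyte STAT3 is known for its part in wound healing and in psoriasis-like disease.

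There were 14557 barcodes with 147260653 UMIs in WT and 10886 with 123839924 in KO, and 49 barcodes occurred in both. After filtering, 13938 WT and 10233 KO cells were kept, with medians of 4603 and 6374 UMIs, and 16.6% and 6.14% of them were under 1000 UMIs. Chrna5 itself had 12 UMIs in WT and 6 in KO cells, too few and without a known deleted part to check the genotype labels. With 1 library per genotype, genotype and library cannot be told apart, no test between genotypes is possible, and every difference below is one between these 2 libraries.

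Cells were assigned to a type when they held at least 3 markers of it above a threshold share of their UMIs. In each compared type, every gene of its own marker list was detected in both libraries. There were 8 types with at least 50 cells in each library. They were keratinocytes (8383 WT and 3671 KO cells), fibroblasts (2255 and 2571), monocytes and macrophages (756 and 708, called macrophages below), T cells (175 and 404), sebaceous gland cells (97 and 140), lymphatic endothelial cells (69 and 127), vascular endothelial cells (67 and 134) and melanocytes (60 and 68). The keratinocyte gate held many shallow WT barcodes, with a median of 2845 UMIs per cell against 13792 in KO, and fibroblasts were closer, at 7402 and 6634. The libraries also filled different keratinocyte clusters. Clusters 19, 20 and 22 held 507, 396 and 308 WT cells and 0, 0 and 1 KO cells, clusters 8 and 12 held 1011 and 861 WT and 80 and 112 KO cells, and the shallow cluster 1, of which 91.6% passed the keratinocyte gate, held 2386 and 27. Fibroblast clusters 3, 9 and 11 held 1545, 149 and 68 WT cells and 24, 906 and 958 KO cells. Macrophage cluster 28 held 182 and 10. Macrophages with at least 2 inflammatory monocyte markers that fell in no other subset numbered 171 in WT and 37 in KO. Ratios over all keratinocytes, fibroblasts or macrophages therefore compare different mixtures of cells. Values within clusters are given below for every member but Osm, which had under 20 UMIs in each compared keratinocyte cluster. These values count all cells of a cluster, also those outside its gate. Of clusters 16 and 12, 53.7% and 66.4% of cells passed the keratinocyte gate, and of cluster 15, 55.3% passed the T cell gate. Orders of levels are among the 8 compared types. A level is given as CPM, the gene's UMIs per 1000000 UMIs of the type in that library, and a ratio is KO over WT. Brackets hold exact 95% intervals, which cover counting error only and not differences between mice. A call, higher or lower in KO, needs a ratio at least 1.5-fold from 1, a bracket that excludes 1 and at least 20 UMIs over both libraries. In summed UMIs, fewer expressing cells and less RNA per cell cannot be told apart.

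**Figure D1:**
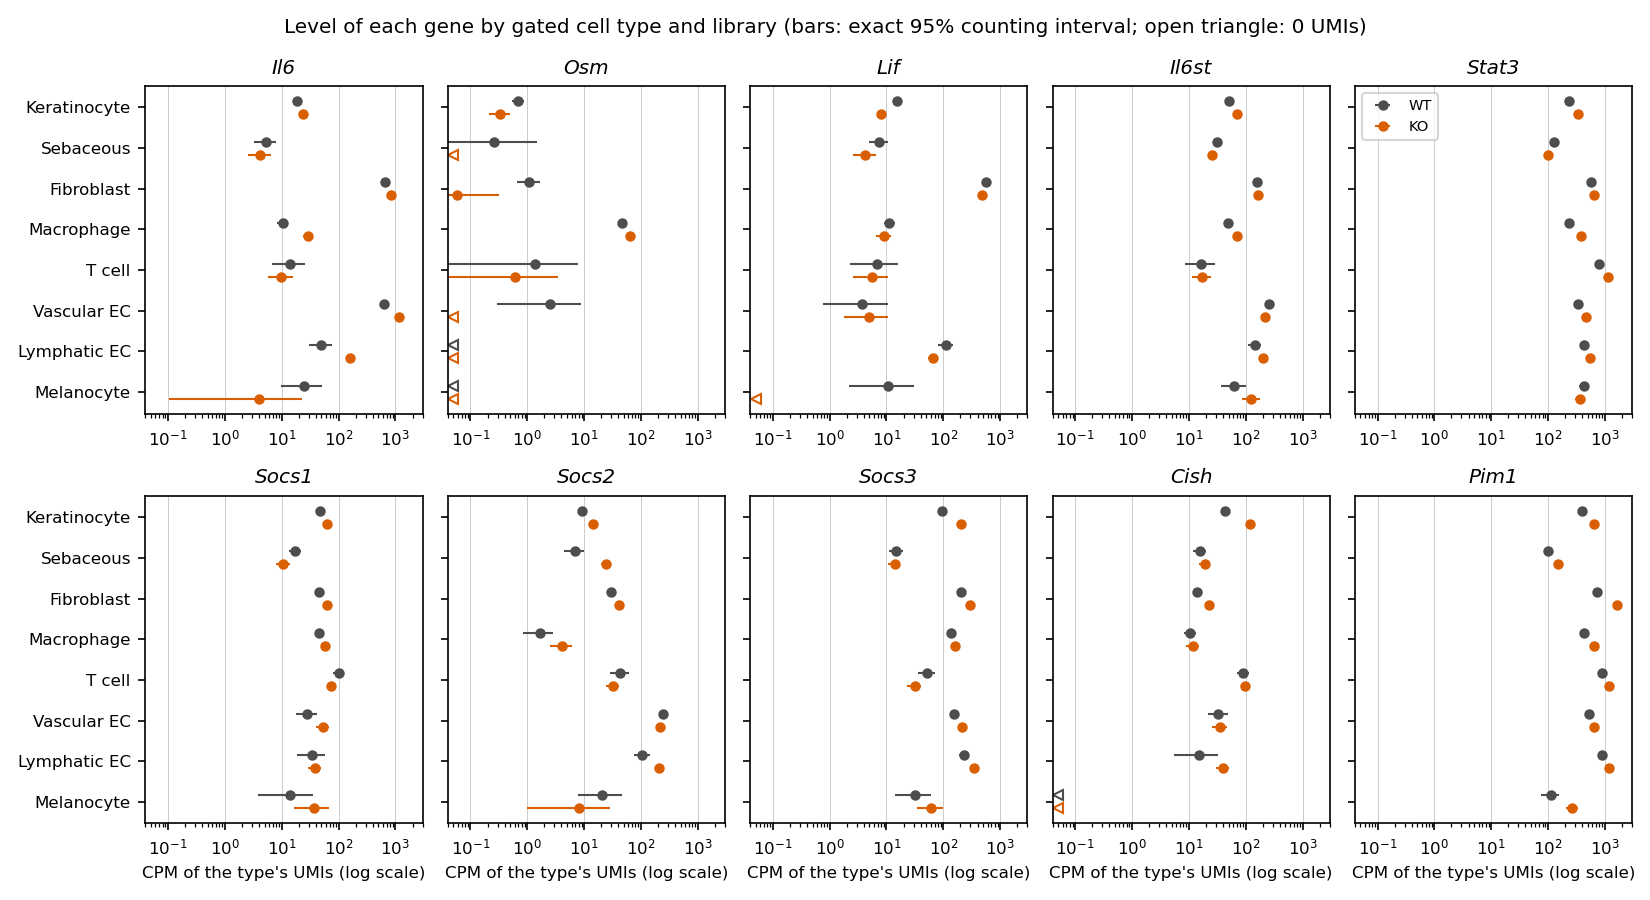
Level of each of the 10 genes (x axis, CPM of the type's UMIs, log scale) in 8 gated cell types (y axis; EC, endothelial cell), grey for WT and orange for KO, with exact 95% counting intervals. In WT, Il6 and Lif stand highest in fibroblasts (655 and 554 CPM), Osm in macrophages (46.3 CPM in WT), and Stat3 in T cells (780.5 CPM in WT).

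Across types, Pim1 and Cish tended to be higher in KO and Lif lower, while Il6st, Stat3 and Socs1 were mostly within 1.5-fold. In keratinocytes 4 of 10 were higher, where 12.7% of all genes were, and 2 lower, where 11.4% were. In fibroblasts 2 of 10 were higher (13.1% of all genes) and 1 lower (6.98%). In macrophages 4 of 10 were higher (11% of all genes) and 0 lower (7.88%). In lymphatic endothelial cells 4 of 9 measured were higher (9.12% of all genes) and 1 lower (5.54%), and in vascular endothelial cells 2 of 8 were higher (10.8%) and 0 lower (13.1%). T cells had 0 of 8 higher (9.16%) and 1 lower (3.93%), sebaceous gland cells 1 of 9 higher (9.22%) and 1 lower (9.71%), and melanocytes 2 of 4 higher (8.08%) and 0 lower (4.63%). With 10 members or fewer, 1 call is a share near the background in most of these types. The median log2 ratio of the measured members was 0.49 in keratinocytes (0.04 over all genes tested), 0.38 in fibroblasts (0.09), 0.48 in macrophages (0.06) and -0.18 in T cells (0.16). Median-ratio scaling moved all ratios down by 0.16 on the log2 scale in T cells and 0.12 in melanocytes, and by less than 0.1 in the other types.

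**Figure D2:**
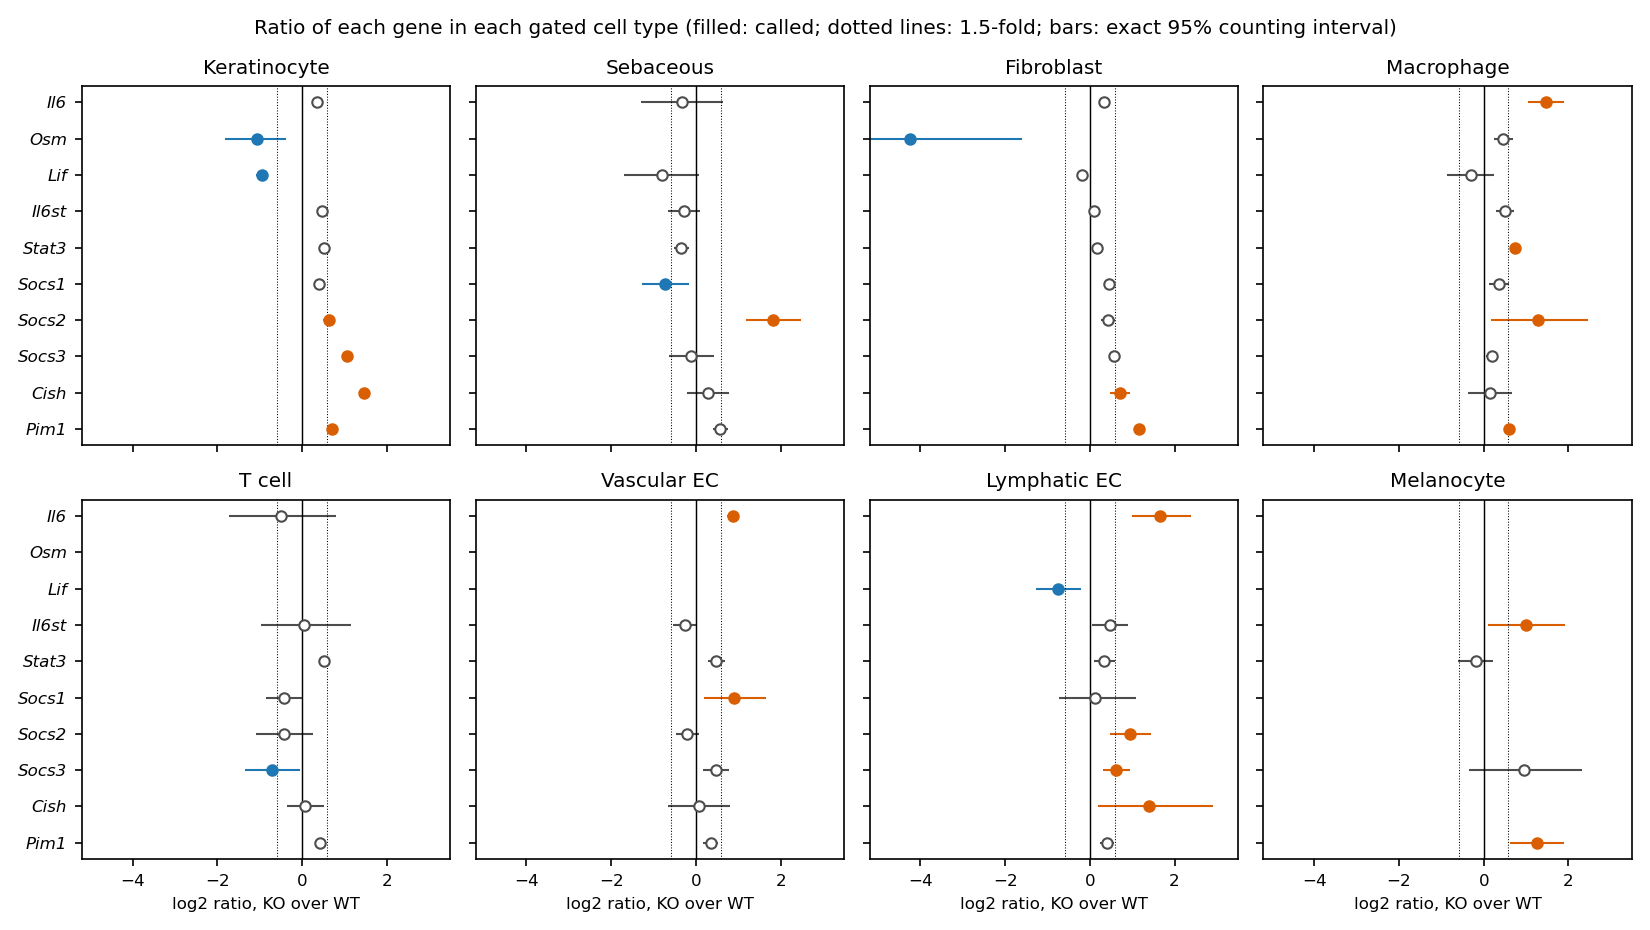
Ratio KO over WT on a log2 scale (x axis) of each gene (y axis) in the 8 cell types (EC, endothelial cell), with exact 95% counting intervals; filled points are calls (orange higher, blue lower) and dotted lines mark 1.5-fold. Pim1 lies right of 0 in all 8 panels, and Cish at 2.76-fold is the farthest right in keratinocytes.

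Il6 and Lif came mostly from fibroblasts and Osm mostly from macrophages. Il6 (ENSMUSG00000025746, chromosome 5, 30013114 to 30019981, plus strand, mm10) had 70.9% of its UMIs over all kept WT cells in fibroblasts and 66.2% in KO. Its level in fibroblasts was 655 in WT and 832 CPM in KO, a ratio of 1.27 (1.24 to 1.30), which is not a call. Within the 3 compared fibroblast clusters the ratio ran from 1.08 to 1.43, with 0 calls. Vascular endothelial cells stood at 633 CPM in WT, within the counting error of fibroblasts, and at 1157 CPM in KO, above them. That ratio of 1.83 (1.65 to 2.03) was called higher, and it was 1.90 without the most loaded cell of each library, since 1 KO cell held 122 UMIs. Markers of pericytes and smooth muscle were at 25.9 CPM in WT (5 of 6 detected) and 289.7 CPM in KO vascular endothelial cells (6 of 6), and fibroblast markers at 62.8 and 139.6 CPM (6 of 7 in each). Both cell types hold much Il6, and the part of these markers in the vascular value was not tested. Pericytes and smooth muscle cells, with only 34 WT and 77 KO cells and so not compared, stood at 1081 and 897 CPM.

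Lower levels of Il6 were found in every other type. Lymphatic endothelial cells held 49.4 in WT and 156 CPM in KO, a ratio of 3.17 (2.00 to 5.28) from 11 WT and 46 KO cells with a UMI. One of those KO cells held 52 of the 235 UMIs, and the ratio without the most loaded cells was 2.87 (1.75 to 5.04). Macrophages held 10.3 and 28.7 CPM, a ratio of 2.77 (2.08 to 3.72), also called higher. The 142 KO macrophage UMIs lay in 55 of 708 cells, 1 of which held 37, and the ratio without the most loaded cells was 2.22 (1.63 to 3.06). Most of these UMIs were in macrophages with at least 2 of the markers Mrc1, Pf4, Cd163 and Folr2, at 9.04 and 38.5 CPM (42 and 123 UMIs), and those with high MHC class II held 10 and 9 UMIs. For shares of cells, each cell was thinned to 1000 UMIs and cells with fewer were left out. In keratinocytes that left out 1914 of 8383 WT and 337 of 3671 KO cells. The share of thinned macrophages with an Il6 UMI was 0.938% (0.378 to 1.92) in WT and 1.75% (0.906 to 3.03) in KO, against 2.29% and 0.990% in T cells, so the difference was not detectable in shares of cells. In these types Il6 was at 2.48% or less (macrophages) and 13.5% or less (lymphatic endothelial cells) of the highest type's level in its library, and free RNA can give such levels. Fibroblast markers, which would come along with RNA or attached cells of fibroblasts, were at 147 in WT and 149.5 CPM in KO macrophages (7 of 7 markers detected in both), and their part in the Il6 values was not tested. In lymphatic endothelial cells they were at 124 and 157 CPM (6 and 7 of 7 markers). Keratinocytes held 18.4 and 23.3 CPM of Il6 (ratio 1.27, 1.19 to 1.36), which is not a call. Within the 7 keratinocyte clusters the Il6 ratio was called higher in 3 and lower in 1. It was 4.69 (3.89 to 5.69) in cluster 5, 2.45 (2.12 to 2.83) in cluster 2 and 1.73 (1.30 to 2.33) in cluster 6. The lower call was 0.335 (0.180 to 0.619) in cluster 23. Fibroblast markers were at 227 and 102 CPM in keratinocytes, and their part in these values was not tested.

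Osm (ENSMUSG00000058755, chromosome 11, 4236420 to 4241026, plus strand) was a macrophage gene in both libraries. Macrophages held 46.3 CPM in WT (336 UMIs) and 64.0 CPM in KO (317 UMIs), a ratio of 1.38 (1.18 to 1.61), which is not a call. No other compared type exceeded 2.46 CPM. Osm was called lower in keratinocytes, at 0.698 and 0.334 CPM (72 and 23 UMIs), a ratio of 0.478 (0.285 to 0.774). In fibroblasts 19 WT UMIs stood against 1 in KO, a ratio of 0.0525 (0.00126 to 0.330). Both calls concern levels of at most 2.35% of those in macrophages. Macrophage markers moved the same way in those gates, with 100 and 41.2 CPM in keratinocytes and 129 and 51.9 CPM in fibroblasts (10 of 10 markers detected in each), and their part in the Osm values was not tested.

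Lif (ENSMUSG00000034394, chromosome 11, 4257557 to 4272514, plus strand), the neighbour of Osm on the same strand, was a fibroblast gene. Fibroblasts held 554 in WT and 488 CPM in KO, a ratio of 0.881 (0.855 to 0.907). The ratio was below 1 in 5 of the 5 gated types where Lif could be measured, but not in every part of them. It was called lower in keratinocytes, at 15.3 and 7.90 CPM (ratio 0.517, 0.468 to 0.570), where fibroblast markers were also lower, at 227 and 102 CPM. The part of these markers in the Lif value was not tested. Thinned keratinocytes with a Lif UMI made up 3.66% (3.22 to 4.15) in WT and 1.44% (1.06 to 1.90) in KO, against 2.29% and 0.495% in T cells. It was also called lower in lymphatic endothelial cells, at 111 and 65.9 CPM (ratio 0.593, 0.413 to 0.863), but 1 WT cell held 15 of the 45 UMIs, and without the most loaded cells the ratio was 0.829 (0.543 to 1.30).

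Within single clusters the Lif ratio lay on both sides of 1. In fibroblasts it was 0.434 (0.405 to 0.464) in cluster 4, 1.44 (1.30 to 1.60) in cluster 9 and 1.36 (1.18 to 1.58) in cluster 11. In keratinocytes it was below 1 in 5 of 7 clusters, and it was 1.26 (0.955 to 1.67) in cluster 5 and 1.77 (1.11 to 2.94, called higher) in cluster 23. Macrophages with at least 2 of the markers Mrc1, Pf4, Cd163 and Folr2 held 61 and 15 UMIs (ratio 0.357, 0.189 to 0.637, called lower). Those with high MHC class II held 5 and 27 UMIs (ratio 3.99, 1.51 to 13.3, called higher). Single cells weigh on both values. The most loaded WT cell, with 25 UMIs, was among the former, and the most loaded KO cell, with 23, among the latter. Both T cell clusters were called higher as well, from 13 and 84 UMIs in cluster 15 (ratio 2.57, 1.42 to 5.02) and from 1 and 21 UMIs in cluster 25 (ratio 7.44, 1.20 to 308). Gated T cells had only 5 and 9 UMIs, so most Lif UMIs of these clusters lay in cells outside the T cell gate. That gate was passed by 55.3% of the cells of cluster 15 and 83.9% of those of cluster 25.

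Fibroblast subsets defined by markers differed in Lif too. Cells with at least 2 of the markers Fmod, Tnmd and Aspn held 312 in WT and 136 CPM in KO, a ratio of 0.434 (0.369 to 0.512), and Il6 was lower there as well, at 417 and 240 CPM (ratio 0.575, 0.504 to 0.656). Cells with at least 2 of Pi16, Dpp4 and Cd55 held 504 and 448 CPM of Lif (ratio 0.888) and 609 and 898 CPM of Il6 (ratio 1.48, 1.37 to 1.58). In the remaining fibroblasts the ratios were 0.973 for Lif and 1.37 for Il6. Both cytokines tended to occur in the same cells. Among thinned fibroblasts, a Lif UMI was present in 37.9% of WT cells with Il6 and in 23.2% of those without it, and in 30.2% and 16.5% of KO cells.

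Of the other ligands of the family, a list of 8, 6 had enough UMIs in keratinocytes. There 1 was called higher and 2 lower, beside 12.7% and 11.4% of all genes. Clcf1, a ligand of the ciliary neurotrophic factor receptor, had the highest level and was lower, at 73.5 and 31.2 CPM (ratio 0.424), and Il27 was at 0.650 and 0.145 CPM (ratio 0.224). Macrophage markers in keratinocytes were lower too, at 100 and 41.2 CPM, and their part in the low Il27 values was not tested. In macrophages Clcf1 was lower too, at 14.9 and 5.85 CPM (ratio 0.393), whereas in T cells it was higher, at 15.2 and 31.9 CPM (ratio 2.11, 1.09 to 4.47).

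Il6st (ENSMUSG00000021756, chromosome 13, 112464070 to 112510086, plus strand), the gp130 chain, was present in every type and was called in 1 of 8. Among the compared types vascular endothelial cells had the highest level, with 259.8 in WT and 216 CPM in KO (ratio 0.832, 0.692 to 1.002). Lymphatic endothelial cells (146 and 202 CPM) and fibroblasts (155 and 168 CPM) followed, and the WT values of these were within counting error of each other. Keratinocytes held 50.7 and 70.2 CPM (ratio 1.39, 1.33 to 1.44) and macrophages 49.6 and 70.2 CPM (ratio 1.41, 1.22 to 1.64). Within the 7 keratinocyte clusters the ratio ran from 0.746 to 1.91. It was called higher in 1, cluster 2 (45.6 and 86.9 CPM, ratio 1.91, 1.80 to 2.02). T cells were lowest, at 16.5 and 17.2 CPM, within counting error of sebaceous gland cells. Schwann cells, too few in WT to compare, stood at 266 and 313 CPM. The one call over a whole type was in melanocytes, from 18 and 31 UMIs (ratio 1.98, 1.08 to 3.77).

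Among the receptor chains that pair with gp130 and their relatives, a list of 7, keratinocytes had 6 measured. Of these 3 were higher and 1 lower, beside 12.7% and 11.4% of all genes. Il6ra, the IL-6 binding chain, was called higher in keratinocytes (18.8 and 31.3 CPM, ratio 1.67), fibroblasts (91.7 and 145 CPM, ratio 1.58), macrophages (54.6 and 92.2 CPM, ratio 1.69) and lymphatic endothelial cells (37.1 and 79.2 CPM, ratio 2.14). Osmr, the oncostatin M receptor, was the highest of the list in keratinocytes (141 and 123 CPM, ratio 0.870) and in fibroblasts (376 and 393 CPM, ratio 1.05), neither of them a call. It was called higher in vascular endothelial cells (266 and 411 CPM, ratio 1.54). It was called lower in sebaceous gland cells (100.5 and 65.9 CPM, ratio 0.656), T cells (15 and 10 UMIs, ratio 0.297) and melanocytes (20 and 6 UMIs, ratio 0.345).

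Stat3 (ENSMUSG00000004040, chromosome 11, 100885098 to 100939540, minus strand) was highest in T cells, at 780.5 in WT and 1124 CPM in KO, a ratio of 1.44 (1.31 to 1.59). Fibroblasts came next at 581 and 655 CPM (ratio 1.13, 1.10 to 1.16), above the remaining compared types in both libraries. Schwann cells, not compared, held 629 and 477 CPM. Keratinocytes held 238 and 339.8 CPM (ratio 1.42, 1.40 to 1.45), just under the 1.5-fold of a call. Within the 7 keratinocyte clusters the ratio ran from 0.946 to 1.78. It was called higher in 1, cluster 2 (183 and 325 CPM, ratio 1.78, 1.73 to 1.83). The only call over a whole type was in macrophages, at 231 and 386 CPM (ratio 1.67, 1.57 to 1.79). It was as large in the Mrc1, Pf4, Cd163 and Folr2 macrophages (256 and 417 CPM, ratio 1.63) as in those with high MHC class II (188 and 303 CPM, ratio 1.62), and in both macrophage clusters with cells of both libraries (ratios 1.52 and 1.55). Sebaceous gland cells were lowest, at 126 and 99.4 CPM. The 3' end of Stat3 overlaps that of Stat5a on the other strand. The sources used here do not say whether counting used the strand, so a part of either gene's reads could belong to the other. Stat5a had 2876 UMIs in WT and 2671 in KO over all kept cells, against 42886 and 52627 for Stat3.

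The Janus kinases and other STATs, a list of 10, were mostly not called in the types with most cells. In keratinocytes 0 were called higher and 1 lower of 10 measured, beside 12.7% and 11.4% of all genes. In fibroblasts 2 were higher and 0 lower of 9, beside 13.1% and 6.98%. Jak1, which gp130 uses, was the highest of the list in keratinocytes, with 227 and 280.5 CPM (ratio 1.24), and in fibroblasts, with 883 and 766 CPM (ratio 0.867). Stat5b was higher in fibroblasts, at 83.3 and 172 CPM (ratio 2.06). In vascular endothelial cells 4 of 7 were higher, beside 10.8% of all genes. Among them was Stat2, a carrier of interferon signals, at 32.01 and 111 CPM (ratio 3.45).

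In keratinocytes, Cish and Socs3 had the highest ratios of the 10 genes. Cish (ENSMUSG00000032578, chromosome 9, 107296026 to 107302784, plus strand) stood at 43.7 CPM in WT keratinocytes (4511 UMIs) and at 121 CPM in KO keratinocytes (8309 UMIs), a ratio of 2.76 (2.66 to 2.86). Keratinocytes held 86.0% of all its UMIs in WT and 85.2% in KO. Thinned keratinocytes with a Cish UMI made up 3.68% (3.23 to 4.17) in WT and 10.1% (9.11 to 11.2) in KO, against 1.07% and 0.437% in macrophages. T cells were the other place of high Cish, at 91.0 CPM in WT, above keratinocytes, and 95.8 CPM in KO, below them (ratio 1.05, 0.785 to 1.43). The ratio was above 1 in 7 of the 7 types with enough UMIs, though in T cells it was 0.942 under median-ratio scaling. It was called higher in fibroblasts (13.7 and 22.4 CPM, ratio 1.63, 1.38 to 1.92) and lymphatic endothelial cells (6 and 59 UMIs, ratio 2.65, 1.15 to 7.51). Within the 3 compared fibroblast clusters the Cish ratio ran from 1.22 to 1.96 and was called in 1. Melanocytes had 0 UMIs in 60 WT and 68 KO cells. Of the genes that overlap Cish on the other strand, Gm17041 had 4 and 15 UMIs over all kept cells.

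Within the keratinocytes, the Cish ratio was above 1 in every subset and cluster that could be compared. The ratio was 2.69 (2.59 to 2.80) in cells with at least 2 follicle markers (47.6 and 128 CPM), 2.71 (2.38 to 3.09) in cells with basal markers above suprabasal ones (24.9 and 67.5 CPM) and 2.22 (1.78 to 2.76) in cells with suprabasal markers above basal ones (45.6 and 101 CPM). In the 7 keratinocyte clusters with at least 50 cells of each library it ran from 1.46 to 3.20, above 1 in 7 of 7 and called in 4. In cells with at least 10000 UMIs, where the libraries' depths are closer, it was 2.79.

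Socs3 (ENSMUSG00000053113, chromosome 11, 117966079 to 117970047, minus strand) was spread over more types. Among the compared types lymphatic endothelial cells had the highest level, at 229.9 in WT and 354 CPM in KO (ratio 1.54, 1.23 to 1.94, called higher), followed by fibroblasts at 202 and 299.6 CPM (ratio 1.48, 1.42 to 1.55). Keratinocytes were at 96.7 CPM in WT (9974 UMIs) and 203 CPM in KO (13962 UMIs), a ratio of 2.10 (2.04 to 2.15). The share of thinned keratinocytes with a UMI was 11.5% (10.7 to 12.3) and 19.4% (18.1 to 20.8), against 4.57% and 2.23% in T cells. Macrophages were not called, at 139 and 159 CPM (ratio 1.15, 1.04 to 1.26). T cells were the one type with a lower call, from 37 and 51 UMIs (51.0 and 31.3 CPM, ratio 0.614, 0.394 to 0.964). Keratinocyte markers in T cells were at 1302 and 697 CPM (17 of 18 in each) and fibroblast markers at 186 and 69.4 CPM (7 of 7 in each), and their part in this value was not tested. The call was not kept with a gate at 2 times the marker threshold, where the ratio was 1.02, with cells of several lineages assigned (0.875) or with T cells taken from clusters (0.914). In T cells with at least 2 alpha beta receptor markers Socs3 had 19 and 15 UMIs (ratio 0.365, 0.173 to 0.758), and in those with at least 2 gamma delta markers 16 and 31 UMIs (ratio 0.829, 0.440 to 1.62). Schwann cells, with 22 WT and 84 KO cells and so not compared, held 345 and 678 CPM.

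The Socs3 ratio lay on both sides of 1 across keratinocyte clusters. The ratio was 3.70 (3.51 to 3.90) in cluster 5 (73.8 and 273 CPM) and 1.65 (1.56 to 1.74) in cluster 2 (57.2 and 94.2 CPM). It was 0.981 (0.937 to 1.03) in cluster 6, the keratinocyte cluster where Socs3 was highest (649.9 and 638 CPM), and 0.644 (0.485 to 0.850) in cluster 16 (13.9 and 8.97 CPM). Only 53.7% of the cells of cluster 16 passed the keratinocyte gate, and gated sebaceous gland cells held 14.9 and 13.8 CPM of Socs3. Of 7 clusters 4 had a ratio above 1, with 3 called higher and 1 lower. Fibroblasts showed the same unevenness. Socs3 was 1.19-fold in cluster 4 (136 and 162 CPM), 0.397-fold in cluster 9 (463 and 184 CPM) and 0.702-fold in cluster 11 (755 and 530.3 CPM), although it was 1.48-fold over all fibroblasts. Clusters 9 and 11 held 149 and 68 WT cells against 906 and 958 KO cells, whereas cluster 3, with 1545 WT and 24 KO cells, could not be compared. The value over all fibroblasts therefore compares different mixtures of clusters.

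**Figure D3:**
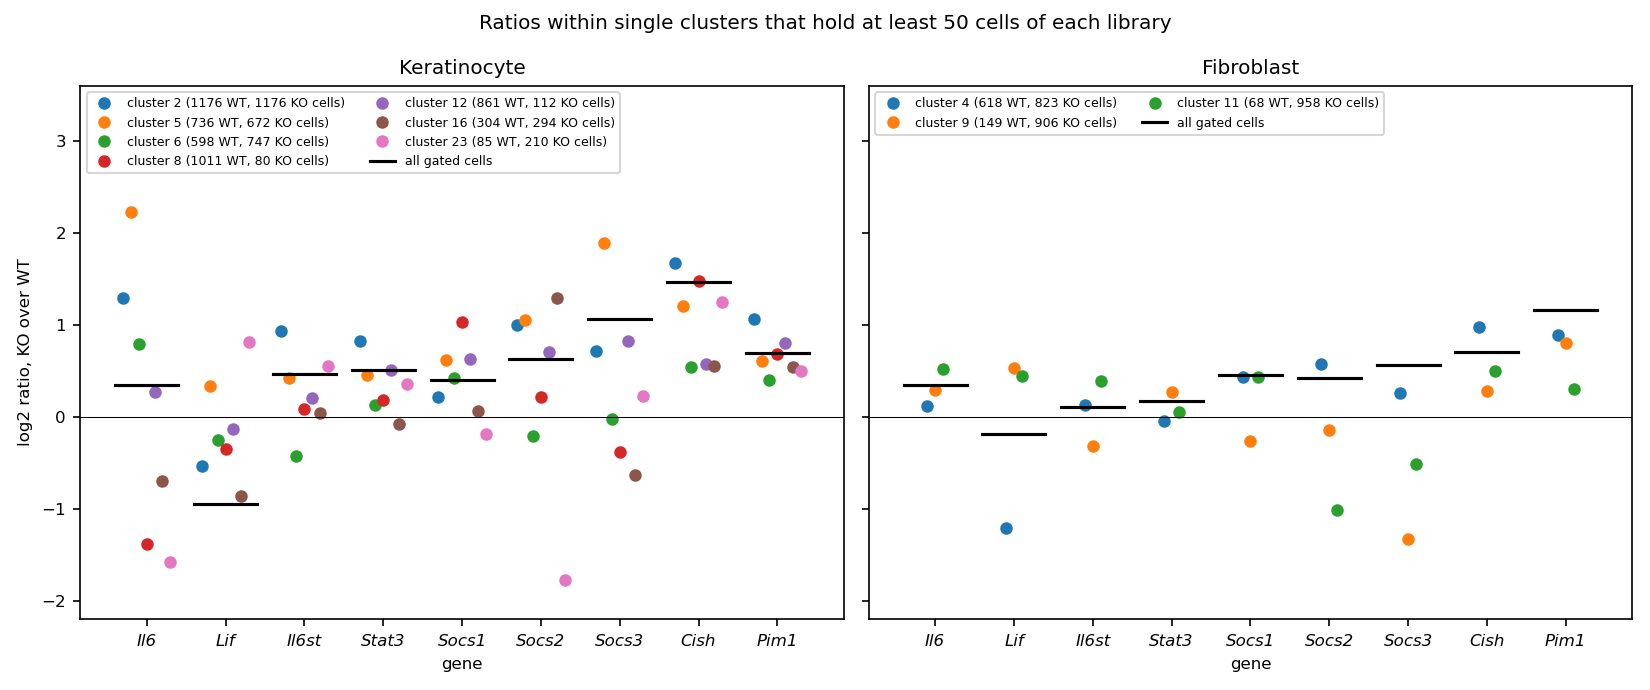
log2 ratio KO over WT (y axis) of 9 genes (x axis; Osm left out) within single clusters that hold at least 50 cells of each library, for keratinocytes (left, 7 clusters) and fibroblasts (right, 3 clusters); black bars give the ratio over all gated cells. Cish and Pim1 lie above 0 in all 10 clusters, while Socs3 lies on both sides in both types.

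The start regions of these genes were searched for TTCNNNGAA, the palindrome that STAT dimers bind, on a table of RefSeq promoters (GRCm38.p6, 250 bases before to 50 after each start). It reads the same on both strands. An entry was present for 8 of the 10 members, not for Osm and Socs2, and 2 of the 8 held the motif, against 8.30% of all 32851 promoters. Cish held 2 copies, which 0.457% of promoters do, and Socs3 1. They are shown because these are the 2 genes with the largest keratinocyte ratios, with the motif in capitals.
Cish, chr9:107296654-107296683, plus strand, within the GENCODE gene span: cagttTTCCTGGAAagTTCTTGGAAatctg
Socs3, chr11:117969453-117969552, minus strand, upstream of the RefSeq start: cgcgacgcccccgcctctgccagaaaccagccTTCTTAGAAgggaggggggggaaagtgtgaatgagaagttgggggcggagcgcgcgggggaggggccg
In Cish the copies begin at bases 1 and 12 of the RefSeq transcript and in Socs3 the copy begins 154 bases before the start. Both stretches lie inside the GENCODE gene spans given above, so upstream refers to the RefSeq start only. A match is a description of the letters in this window. No match in Il6, Lif, Il6st, Stat3, Socs1 and Pim1 says only that these letters are not in the window.

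Socs2 (ENSMUSG00000020027, chromosome 10, 95385362 to 95417180, minus strand) was highest in endothelial cells among the compared types. Vascular endothelial cells held 245 in WT and 212 CPM in KO (ratio 0.866, 0.718 to 1.05). Lymphatic endothelial cells held 106 and 204 CPM, a ratio of 1.92 (1.39 to 2.70), so that the types differed in WT and were within counting error in KO. Mast cells, too few to compare, stood at 343 and 347 CPM on 11 and 22 UMIs. It was also called higher in sebaceous gland cells (6.80 and 23.9 CPM, 26 and 114 UMIs, ratio 3.52, 2.28 to 5.61) and in keratinocytes (9.14 and 14.2 CPM, ratio 1.55, 1.42 to 1.70). The keratinocyte value ranged from 0.291 to 2.45 over the 7 clusters. The macrophage call rested on 12 and 20 UMIs (ratio 2.44, 1.14 to 5.47) at under 2% of the endothelial level.

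Socs1 (ENSMUSG00000038037, chromosome 16, 10782240 to 10785536, minus strand) was found in all 8 compared types. T cells had the highest level in WT, at 101 CPM, and in KO their 74.9 CPM was within counting error of fibroblasts at 63.0 CPM (T cell ratio 0.744, 0.552 to 1.01). Keratinocytes held 47.6 and 62.8 CPM (ratio 1.32, 1.27 to 1.38), fibroblasts 45.9 and 63.0 CPM (ratio 1.37, 1.25 to 1.504) and macrophages 44.7 and 57.1 CPM (ratio 1.28, 1.09 to 1.504), none of them a call. Within the 7 keratinocyte clusters Socs1 ratios ran from 0.882 to 2.05, with 3 called higher and 0 lower. It was called higher in vascular endothelial cells (23 and 65 UMIs, ratio 1.85, 1.14 to 3.12), where the pericyte and smooth muscle markers given above were higher too, and lower in sebaceous gland cells (66 and 50 UMIs, ratio 0.607, 0.412 to 0.890).

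The other negative regulators of the pathway, a list of 13 that holds further SOCS genes, PIAS genes and tyrosine phosphatases, were not called in the largest types. In keratinocytes 0 were higher and 0 lower of 13 measured (median log2 ratio 0.06, against 0.04 over all genes tested), and in fibroblasts 0 and 0 of 13 (0.02 against 0.09). Of all genes, 12.7% were higher and 11.4% lower in keratinocytes, and 13.1% and 6.98% in fibroblasts. Ptpn1, a phosphatase that acts on Janus kinases, was the highest in keratinocytes, at 88.9 and 104 CPM (ratio 1.17).

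Pim1 (ENSMUSG00000024014, chromosome 17, 29490753 to 29496112, plus strand), a survival kinase that needs no activating phosphorylation and is made in response to STAT signals, was the member whose ratio was above 1 in all 8 types, from 1.27 to 2.38. Fibroblasts had the largest difference among the types with many cells, at 727 CPM in WT (12695 UMIs) and 1633 CPM in KO (28590 UMIs), a ratio of 2.25 (2.20 to 2.29). The share of thinned fibroblasts with a UMI was 46.7% (44.6 to 48.8) and 68.8% (67.0 to 70.6), against 12.5% and 21.5% in sebaceous gland cells. The ratio was 1.72 (1.58 to 1.88) in the Fmod, Tnmd and Aspn cells, 2.12 (2.00 to 2.25) in the Pi16, Dpp4 and Cd55 cells and 2.36 (2.30 to 2.41) in the rest. Within clusters it was smaller, at 1.85, 1.75 and 1.23 in clusters 4, 9 and 11, where the WT levels were 613, 1234 and 1345 CPM.

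Pim1 was also called higher in keratinocytes (394 and 638 CPM, ratio 1.62, 1.60 to 1.64), macrophages (424 and 637 CPM, ratio 1.504, 1.43 to 1.58) and melanocytes (32 and 66 UMIs, ratio 2.38, 1.54 to 3.75). The keratinocyte ratio was above 1 in 7 of 7 clusters, from 1.32 to 2.09. With cells thinned to 1000 UMIs the ratio was 1.29 (1.22 to 1.36), under the threshold. Thinning gives deep cells less weight, and it also left out 1914 WT and 337 KO keratinocytes under 1000 UMIs. Which of these moved the ratio was not tested. In T cells, which with lymphatic endothelial cells had the highest WT level, it was 883 and 1193 CPM (ratio 1.35, 1.24 to 1.48), and the lymphatic value was 879.9 and 1158 CPM (ratio 1.32). The antisense gene Gm26885 that overlaps Pim1 had 34 and 28 UMIs over all kept cells.

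Other genes that STAT3 is known to activate, a list of 17, were split. In keratinocytes 5 of 17 were higher and 3 lower, beside 12.7% and 11.4% of all genes (median log2 ratio 0.37, 0.04 over all genes tested). In fibroblasts 5 and 3 of 17 were, beside 13.1% and 6.98% (0.19, 0.09 over all). In macrophages 2 and 3 of 17 were, beside 11% and 7.88% (0.18, 0.06 over all). The 2 higher in macrophages are a share near that of all genes. Junb, a transcription factor of the AP-1 family, was higher in keratinocytes, at 752 and 1554 CPM (ratio 2.07), as was Bcl2l1, a survival gene, at 5.21 and 10.9 CPM (ratio 2.10). The acute-phase gene Saa3 and Lcn2, which encodes the iron-binding protein lipocalin 2, went the other way. Saa3 was at 4036 and 364.5 CPM in fibroblasts (ratio 0.0903) and 3455 and 133 CPM in macrophages (ratio 0.0384). Lcn2 was at 695 and 136 CPM in keratinocytes (ratio 0.195) and 667 and 12.9 CPM in fibroblasts (ratio 0.0193). Socs3, Cish and Pim1 were higher in KO keratinocytes, and Saa3 and Lcn2 lower. Saa3 in keratinocytes was at 116 and 4.81 CPM (ratio 0.0415), far under its fibroblast and macrophage levels in each library. Fibroblast markers in keratinocytes were lower too, at 227 and 102 CPM, as were macrophage markers, at 100 and 41.2 CPM. The part of these markers in the Saa3 value was not tested.

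Immediate early and stress genes rise within minutes of cell injury and during tissue digestion (here with collagenase). Those listed here had more calls higher than lower in KO in every compared type but T cells. Of the 20 on the list, 19 were higher and 0 lower in keratinocytes (median log2 ratio 1.04), with a summed level of 9865 in WT and 20308 CPM in KO and no gene at 0. In fibroblasts 14 were higher and 0 lower (0.72, summed levels 11776 and 19642 CPM), in macrophages 8 and 0 of 20 (0.53, 9654 and 13941 CPM), in lymphatic endothelial cells 13 and 0 of 19 (0.84, 17621 and 29866 CPM) and in vascular endothelial cells 11 and 0 of 19 (0.85, 9589 and 16420 CPM). In T cells 2 were higher and 3 lower of 20 (0.12, 7203 and 7857 CPM). In sebaceous gland cells 13 were higher and 0 lower of 20 (0.83, 5722 and 11508 CPM). In melanocytes 2 were higher and 0 lower of 19 (0.36, 9512 and 11715 CPM, 1 gene at 0 in KO). Of all genes, 12.7% were higher in keratinocytes, 13.1% in fibroblasts, 11% in macrophages and 9.22% in sebaceous gland cells. In lymphatic and vascular endothelial cells 9.12% and 10.8% were, and in T cells and melanocytes 9.16% and 8.08%. The calls higher in T cells and melanocytes are shares near these. Junb belongs to this list too. The part of this list in the members' ratios was not tested.

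**Figure D4:**
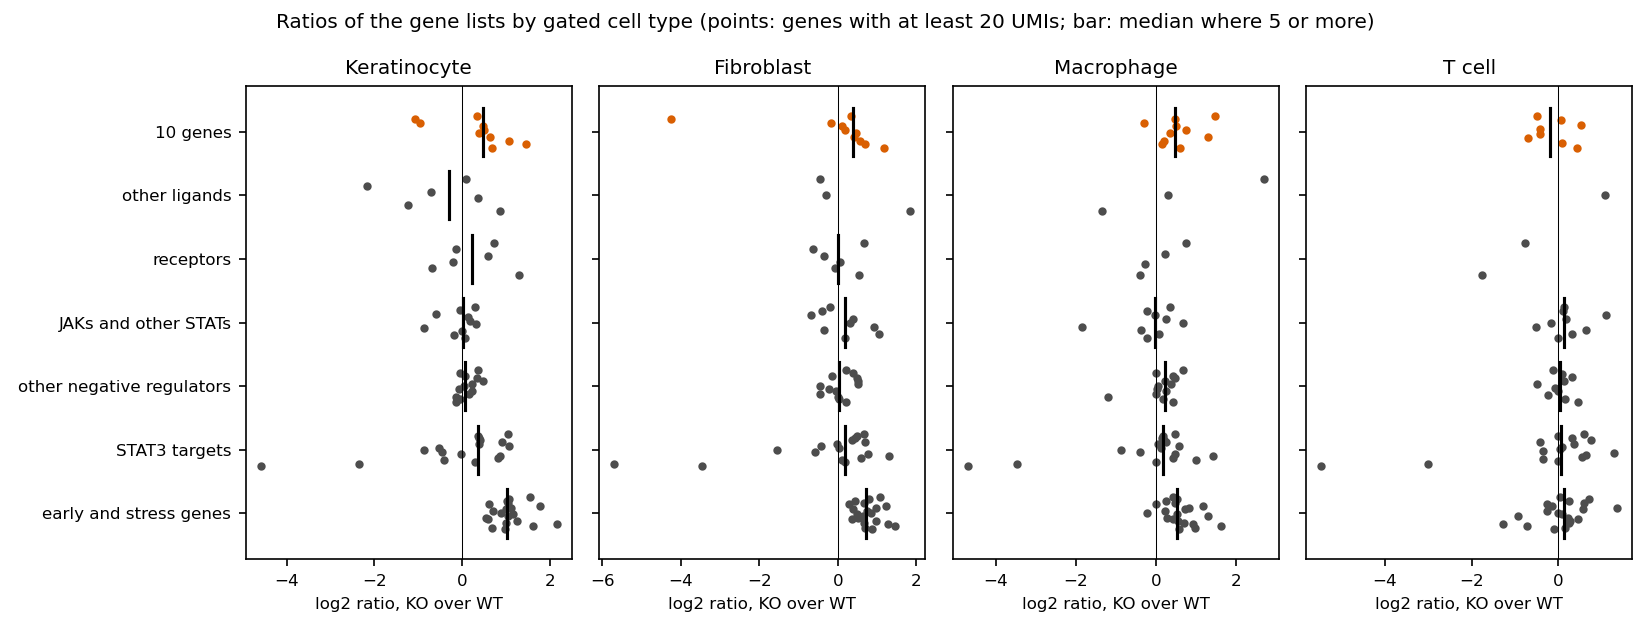
log2 ratio KO over WT (x axis) of the genes of each list (y axis), 1 point per gene with at least 20 UMIs and a bar at the median where there are 5 or more, in 4 cell types; the 10 members are orange. The early and stress genes have medians of 1.04 in keratinocytes and 0.12 in T cells, and 2 STAT3 targets, Saa3 and Lcn2, lie far left in each panel.

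Fos, a leading immediate early gene, was used to divide thinned cells, a division chosen after the data were seen. The libraries fill different clusters, so each class holds different mixtures of cells, and no cause of the shares below was tested. A Fos UMI was present in 35.8% of WT and 58.6% of KO keratinocytes, and in 17.8% of WT and 32.1% of KO fibroblasts. Among keratinocytes without a Fos UMI, Socs3 was present in 6.26% (5.55 to 7.04) of the WT and 6.15% (4.95 to 7.55) of the KO cells. Among those with a Fos UMI it was present in 20.9% (19.2 to 22.6) and 28.8% (26.8 to 30.9). In fibroblasts the shares were nearly the same in both libraries within each class, at 7.88% (6.69 to 9.21) and 8.03% (6.80 to 9.42) without Fos and 37.1% (32.3 to 42.0) and 36.6% (33.2 to 40.0) with it.

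For Cish and Pim1 the libraries stood apart in cells without a Fos UMI as well. Keratinocytes without a Fos UMI had Cish in 2.79% (2.31 to 3.34) of the WT and 6.52% (5.27 to 7.95) of the KO ones, and those with one in 5.26% (4.39 to 6.25) and 12.6% (11.2 to 14.2). Pim1 was present in 44.9% (42.6 to 47.2) of the WT and 67.8% (65.5 to 70.0) of the KO fibroblasts without a Fos UMI, and in 54.9% (49.9 to 59.8) and 71.0% (67.8 to 74.1) of those with one. In keratinocytes Pim1 was present in 37.8% (36.3 to 39.3) of the WT and 49.1% (46.4 to 51.8) of the KO cells without a Fos UMI, and in 46.4% and 45.8% of cells with one. The difference between those classes was not tested. Lif in WT fibroblasts was present in 30.9% of cells without a Fos UMI and in 12.3% of those with one, and in KO in 25.1% and 12.8%. Cells of 1 library are not replicates, and these intervals cover counting error only.

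**Figure D5:**
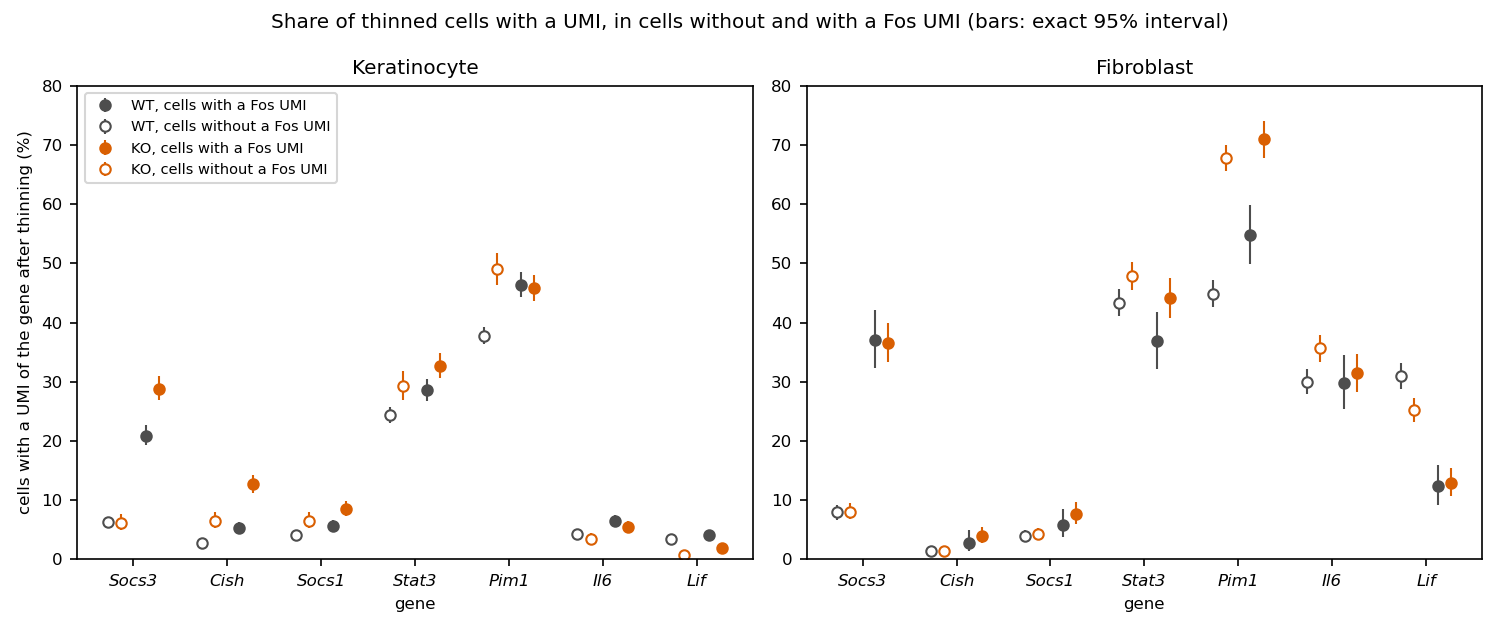
Share of cells with a UMI of each gene (y axis, percent, each cell thinned to 1000 UMIs; x axis, gene) in keratinocytes and fibroblasts, open points for cells without and filled points for cells with a Fos UMI, grey for WT and orange for KO, with exact 95% intervals. Cells under 1000 UMIs are left out. Socs3 in cells without a Fos UMI is at 6.26% and 6.15% in keratinocytes, whereas Cish there is at 2.79% and 6.52%.

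Genes with the most similar pattern were sought for each member by the correlation of log2(CPM + 1) over 16 points, the 8 types in both libraries. The points share libraries and depth, so the correlations describe these data only. For Il6 they were Galnt15 (r = 0.96), Casp12 and Col4a1, for Osm Fcgr3 (r = 0.99, itself a gate marker) and Cd209g, and for Lif Tnxb (r = 0.96), Flrt2 and Prr16. Il6st was closest to Tcf4 (r = 0.96), Bag3 and Trim47, and Stat3 to Mysm1 (r = 0.94), Sik3 and Sf3b1. Socs2 was closest to Spry4 (r = 0.93), Rnf31 and Fzd4. Socs3 was closest to Emp1 (r = 0.94), Ier3 and Asap1, of which Ier3 is on the early gene list, and Pim1 to Tnfaip3 (r = 0.94), Ago3 and Fosl2. Cish (Prr12, r = 0.91, with Ss18l1 and Gtpbp10) and Socs1 (Edc4, r = 0.86, with Rap1gds1 and Per1) had the weakest likeness.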

How the data were processed

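Per the file headers, the authors deposited raw UMI counts per gene and barcode, not normalized. Per the submitters' processing notes, the tools were Cell Ranger 3.0.2 and Seurat 3.0 and the build mm10, and the matrix header gives software version 3.1.0. Filters before deposit are not given in the sources used here.

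Kept cells had 200 or more genes and no more than 10% of UMIs from mitochondrial genes. A gate needed 3 distinct markers and 40 (keratinocyte, sebaceous, fibroblast, macrophage, erythroid and mast lists) or 10 (other lists) marker UMIs per 10000. These thresholds were set after the data were seen. Cells that passed gates of several lineages (563 WT, 299 KO) were left out, and no doublet caller was run. Ratios have exact conditional intervals and shares exact Clopper-Pearson intervals. A clustering of both libraries (scanpy 1.11.5, 2000 variable genes, 30 principal components, 15 neighbours, Leiden resolution 1) served as an alternative, and a cluster took the gate that more than 50% of its cells passed. Clusters far shallower than their libraries stayed unnamed all the same. Clusters 1, 13 and 14, with 91.6%, 77.7% and 55.4% in the keratinocyte gate, were left out so, at 0.141, 0.176 and 0.302 of the library's median depth. Types from clusters therefore lack these shallow keratinocytes.

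The 10 members are all described. From each other list, the gene with the highest CPM and the called genes with the largest ratio each way could be named; others were chosen after their values were seen. Members and lists were chosen with earlier results of these data known. Intervals and calls were tested on simulated data, in which 200 genes were changed. For keratinocytes (15516 genes) 92% of doubled and 92% of halved genes were called, and for T cells (7488 genes) 82% and 54%. Some genes of the lists are not reported here.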

Additional observations from a re-analysis of the deposited data

Results flagged for a closer look

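Socs1 and Socs3 were called in opposite directions in different cell types. Socs1 had a ratio of 1.85 (1.14 to 3.12) in vascular endothelial cells, from 23 WT and 65 KO UMIs, and of 0.607 (0.412 to 0.890) in sebaceous gland cells, from 66 and 50 UMIs. Socs3 had a ratio of 2.10 in keratinocytes and 1.54 in lymphatic endothelial cells, and of 0.614 in T cells. With 1 library per genotype the difference between types was not tested. The lower Socs3 in T cells was not kept under a stricter gate.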

How the results depend on the processing

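No paired analysis was possible because each genotype has 1 library. All 25 called ratios kept their direction with 20% mitochondrial UMIs, at least 1000 UMIs per cell, median-ratio scaling and cells of several lineages assigned. So did 15 of 15 with thinning, 18 of 18 with types from clusters and 23 of 24 with the stricter gate (Socs3 in T cells, 1.02). The alternatives with at least 10000 UMIs per cell, within single clusters and without the most loaded cell were chosen after seeing the data; 13 of 13 kept their direction in the first, which T cells, lymphatic and vascular endothelial cells and melanocytes were too few for. Sebaceous, vascular endothelial and melanocyte cells had no named cluster. Within single keratinocyte clusters the direction turned for Lif (1.26 in cluster 5, 1.77 in 23), Socs2 (0.866 in 6, 0.291 in 23) and Socs3 (0.981 in 6, 0.768 in 8, 0.644 in 16), as it did for Socs2 in macrophage cluster 10 (0.841) and Socs3 in T cell cluster 25 (2.68).

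Of 146 counts of called members, 107 stayed within 1.5 times. With thinning, 1 keratinocyte member was lower, 0 sebaceous members were higher and 0 lower, 1 fibroblast member was higher and 0 lower, 1 vascular member higher, 0 lymphatic members higher and 0 lower, and 1 melanocyte member higher. At 2-fold, 2 keratinocyte members were higher and 1 lower, 0 sebaceous lower, 1 fibroblast higher, 2 macrophage higher, 0 T cell lower, 0 vascular higher, 2 lymphatic higher and 0 lower, and 1 melanocyte higher. With types from clusters, 1 keratinocyte, 0 fibroblast, 0 T cell and 0 lymphatic members were lower, and 2 macrophage and 1 T cell members higher. With the stricter gate, 2 sebaceous, 0 fibroblast and 0 T cell members were lower and 1 T cell member higher. With several lineages assigned, 1 T cell member was higher and 0 lower. With median-ratio scaling, 2 T cell members were lower and 1 melanocyte member higher, and with at least 1000 UMIs 2 sebaceous members were higher. With at least 10000 UMIs, 7 keratinocyte members were higher and 0 lower, 4 sebaceous lower, and 5 fibroblast higher and 0 lower. Thinning leaves fewer UMIs and leaves out cells under 1000 UMIs, and the 2-fold rule is stricter by construction. The cause of the other changes was not tested.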
